A study of Triticum aestivum with 4 samples.

Results

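A group of 28 known miRNAs stayed within a 2-fold range in winter wheat leaves from the three-leaf stage to jointing. They were chosen from the deposited table of known miRNAs by name and by level. The name had to carry a miR number above 900, and the series miR1117 to miR1139, miR5048 to miR5086, miR5163 to miR5203, miR9652 to miR9680 and miR9772 to miR9783, with miR2111, miR2118, miR2275 and miR6118, were left out, which gave a numbered set of 180 names. Of these, 117 were listed at 0 at one stage or more, and of the 63 above 0 at all 4 stages, 35 varied more than 2-fold and 28 had a highest value at most 2 times the lowest. The same limit was met by 79 of all 371 known names (21.3%), by 15.6% of the numbered set and 44.4% of its 63 names above 0 throughout, and by 44.1% of the 179 known names above 0 at all 4 stages. The levels themselves chose the members, so steadiness is a description here and was not tested.

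Small RNA was sequenced from the uppermost fully expanded leaves of *Triticum aestivum*, the semi-winter cultivar Shimai 22, grown in the field with no treatment. Single libraries came from the three-leaf stage before the cold, the winter dormancy stage, the spring green-up stage and the jointing stage, when the stem elongates. Plant age, day length and temperature all differed between the stages and cannot be told apart. Each library was made from the pooled RNA of 3 biological replicates, so there was 1 value per stage and no spread between plants. The tables list miRNAs of whole leaves and hold no mRNA markers of the tissue, and fewer cells making a miRNA and less of it per cell cannot be told apart.

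A plant miRNA is cut from one arm of a folded precursor by a Dicer-like enzyme and guides an Argonaute protein to transcripts that pair with it along nearly its whole length. Most are 21 nt long, those of 22 nt can start the production of secondary small RNAs from their targets, and 24 nt is the usual length of the small interfering RNAs that silence repeats. Names are given by likeness to entries from any plant, so many of the names below were first given in rice, barley, sorghum, *Brachypodium*, soybean, *Medicago*, poplar or other species. Their function in wheat leaves is mostly not known.

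The sequences of the most abundant members and of the 5p arm of miR9863 are shown with the seed, bases 2 to 8 from the 5′ end, in capitals. They are the sequences that the supplementary table of the study lists for each name.
miR7757-5p: aCAAAACCuucagcuauccauc
miR6478: cCGACCUUagcucaguuggu
miR3950: uUUUCGGCaucauauuaucau
miR1436: aUUUUGGGacggagggaguaa
miR8175: uCGUUCCCcggcaacggcgcca
miR2658: aUGUGACCggugauauaauca
miR1439: uUUUGGAAcggcgggaguacu
miR9863a-5p: uGUUAUGAucugcuucucauc

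The 28 members had 28 different seeds. Since a plant miRNA pairs along nearly its whole length, the seed alone does not decide which names are related. Some members share longer stretches, as given below. Only miR6191 shared its seed with another known name, and that name was miR159a.1, the large conserved family that pairs with MYB transcripts; it is named here after the seeds were compared.
miR6191: cUUGGAUUugucuagauacggaug
miR159a.1: uUUGGAUUgaagggagcucug
Outside the seed the 2 sequences differ. Over all known names, 42 of 371 (11.3%) had a seed that another name also had.

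By length, 12 of the 28 members had 24 nt (42.9%), 11 had 21 nt, 3 had 22 nt, 1 had 23 nt and 1 had 20 nt. The share of 24 nt was 25.3% over all 371 known names and 34.2% over the other 152 names of the numbered set. It was 17.1% over the 35 names of that set that were above 0 at all 4 stages but varied more than 2-fold. The 5′ base was A in 11 members, U in 9, G in 5 and C in 3, whereas U led over all known names with 158 of 371. The GC content ranged from 28.6% to 72.7% with a median of 45.8%, which was also the median of the other names of the numbered set.

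Levels are given in RPM, taken here as the reads of a name for every 1000000 mapped reads of its library. On that reading, 1 read was worth 0.0458 RPM in the jointing library and 0.0552 RPM in the spring green-up library. The mean over the 4 libraries ran from 1.35 RPM for miR7775-5p to 6405 RPM for miR7757-5p, with a median of 35.8 RPM. Of the 28 members, 7 had a mean above 100 RPM, 5 between 50 and 100 RPM, 10 between 10 and 50 RPM and 6 below 10 RPM. The median of the mean levels was 48.1 RPM for the 35 names of the numbered set that varied more, and 55.2 RPM for the 179 known names above 0 at all 4 stages.

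**Figure D1:**
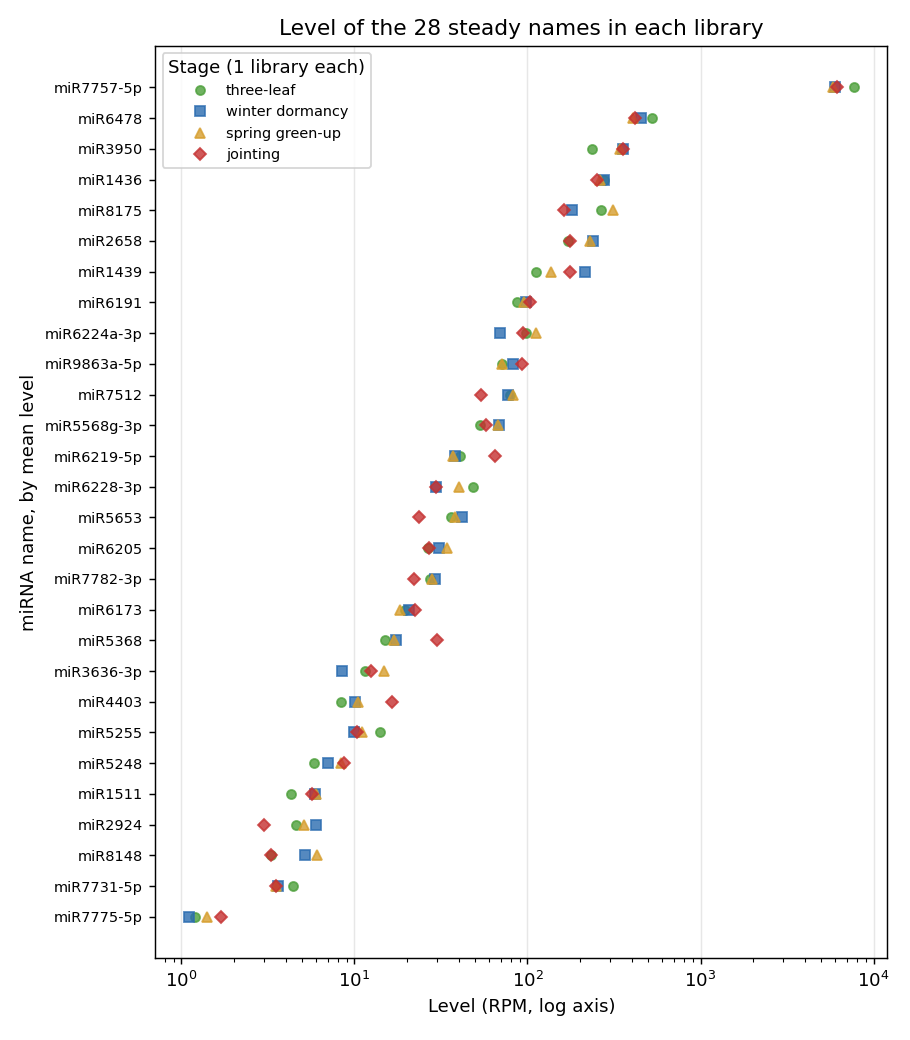
Level of each of the 28 members (RPM, log axis) in the libraries of the 4 stages, 1 point per library, ordered by mean level. The points of one name lie within a factor of 2 by the rule, while the names span 1.35 to 6405 RPM.

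The members summed to 9939.9 RPM in three-leaf plants, 8344.2 in winter dormancy, 8206.9 in spring green-up and 8370.7 in jointing plants. They made up 5.21%, 3.69%, 4.24% and 4.74% of all known miRNA reads in the same order. Most of it was miR7757-5p, and without that name the other 27 summed to 2239.2, 2375.1, 2398.2 and 2229.0 RPM. Their highest sum was 1.08 times their lowest. The 12 members of 24 nt summed to 330.2, 349.8, 357.8 and 338.3 RPM, a ratio of 1.08, and never passed 0.192% of the known total.

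The most abundant member was miR7757-5p, a 22 nt name known from *Brachypodium* and ranked 3 among all known names by mean level. It had 7700.7 RPM in the three-leaf library, 5969.1 in winter dormancy, 5808.7 in spring green-up and 6141.7 in jointing, and this order of the libraries holds for every series of 4 values. The three-leaf library stood above the other three, which lay close together. The highest was 1.33 times the lowest, with a 95% interval of 1.32 to 1.34 that covers counting error only.

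For miR6478, whose name comes from poplar, the values were 521.4, 450.7, 406.7 and 418.9 RPM in the same order. It was likewise highest at the three-leaf stage, by 1.28 times the spring green-up value (1.24 to 1.32). Its sequence holds the letters AGCNNAGUN, where N is any base, taken from the A box that transfer RNA genes carry. On either strand, these letters were found in 4 of the 371 known names (1.08%) and in no other member. Other parts of transfer RNA, and ribosomal RNA, were not searched for.

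The values of miR3950, named from citrus, were 234.9, 354.1, 343.8 and 358.2 RPM. Here the three-leaf library was the low one and the other three were close together, the ratio being 1.52 (1.47 to 1.58). For miR2658, a *Medicago* name, they were 170.7, 238.6, 228.3 and 175.3 RPM. Both middle stages were higher than both outer ones, with a ratio of 1.40 (1.34 to 1.46).

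Less even among the abundant members was miR8175, first named in *Arabidopsis*, with 265.6, 180.1, 310.2 and 163.3 RPM. The study listed miR8175 as differentially expressed, by a limit of more than 2-fold between any 2 stages, and as induced at spring green-up. In the deposited values miR8175 alternated, high at the three-leaf and spring green-up stages and low at the winter dormancy and jointing stages. Its ratio there was 1.90 (1.82 to 1.98). The opposite order between the first stages was seen for miR1439, a rice name, with 111.9, 215.6, 136.3 and 175.2 RPM. It was lowest at the three-leaf stage and highest at the winter dormancy stage, with a ratio of 1.93 whose interval (1.83 to 2.03) reached above the limit.

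The evenest of the members was miR1436, another rice name, with 275.1, 276.0, 264.2 and 251.0 RPM. Its ratio of 1.10 (1.06 to 1.14) was nominally the lowest among the 179 known names above 0 at all 4 stages. Outside the numbered set, miR1137b-5p also came to 1.10, so counting error does not let these names be ranked. That name is given here after the values were seen. Next among the members came miR6191, a 24 nt name from barley, with 87.3, 98.4, 95.6 and 103.9 RPM and a ratio of 1.19 (1.12 to 1.27). After it came miR6173, 22 nt long and named from the rubber tree, with 19.7, 20.7, 18.3 and 22.4 RPM and a ratio of 1.22 (1.06 to 1.41).

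**Figure D2:**
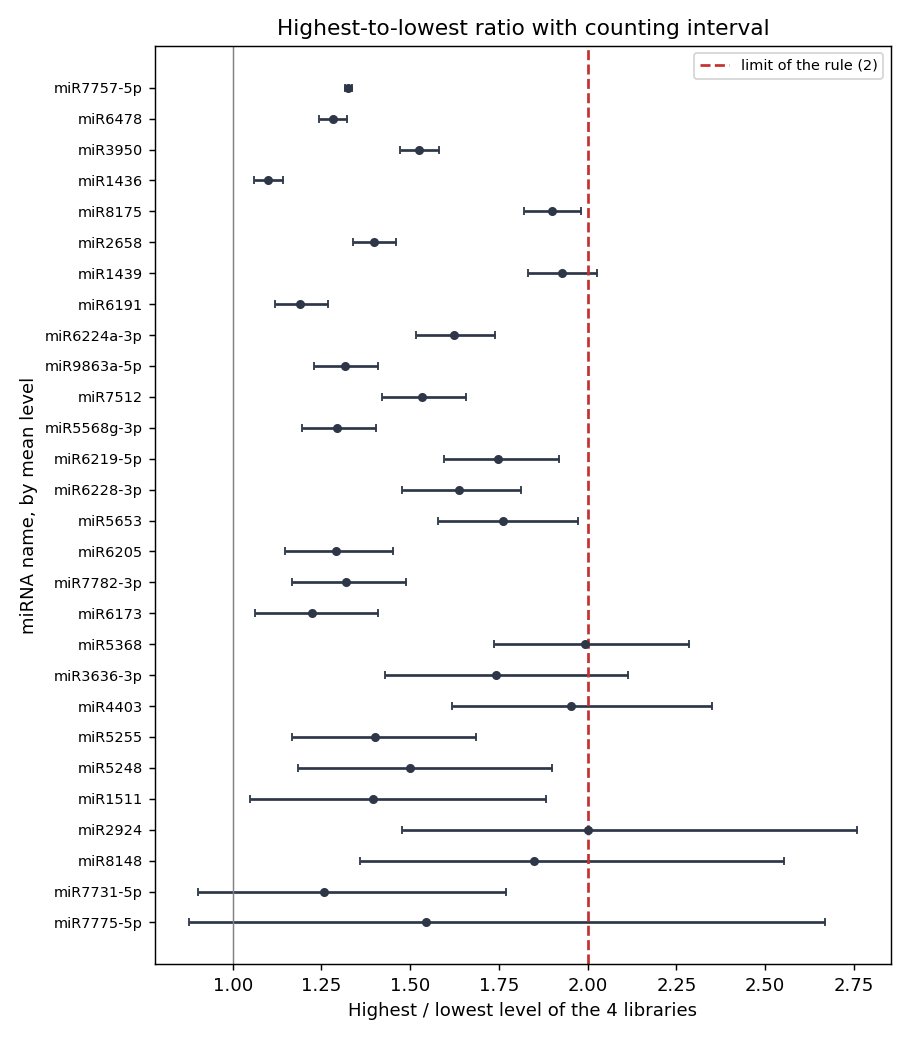
Ratio of the highest to the lowest level of the 4 libraries for each member, ordered by mean level, with 95% exact intervals that cover counting error only; the dashed line is the limit of 2. The intervals widen down the plot, from 1.32 to 1.34 for miR7757-5p to 0.88 to 2.67 for miR7775-5p.

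In 4 cases the table lists another name with the member's number. The miR9863 family is best known from barley, where it pairs with transcripts of Mla immune receptors. Its 5p arm, miR9863a-5p, had 70.8, 82.1, 71.0 and 93.1 RPM, a ratio of 1.31 (1.23 to 1.41), with the jointing library highest.
miR9863a-3p: uGAGAAGGcagaucauaauagc
This 3p arm, 22 nt long, had 336.3, 470.3, 214.8 and 424.2 RPM and a ratio of 2.19, so it was left out by the rule. The 3p arm was the more abundant in every library. The level of the 5p arm over that of the 3p arm, a value that no scaling of the libraries changes, was 0.211, 0.175, 0.331 and 0.219 from the three-leaf stage to jointing. It was highest at spring green-up, where the 3p arm was lowest and the 5p arm was near its lowest value.

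For miR6224, a sorghum name, the 3p arm miR6224a-3p had 98.4, 69.2, 112.3 and 93.9 RPM, lowest at the winter dormancy stage, with a ratio of 1.62 (1.52 to 1.74). The name miR6224a-5p had 185.0, 292.4, 66.4 and 182.5 RPM, which varied 4.40-fold. The same sequence is listed a second time as miR6220-5p, with 44.2, 83.9, 223.1 and 48.2 RPM, as found after the values were seen.
miR6224a-5p: uCCGUUCCuaaauauaagucu
The name miR6220-5p was highest at spring green-up, where miR6224a-5p was lowest. Both names rose from the three-leaf to the winter dormancy stage. Summed, the 2 names had 229.2, 376.3, 289.5 and 230.7 RPM, and the highest sum was 1.64 times the lowest. The 3p arm over that sum was 0.429, 0.184, 0.388 and 0.407, so the winter dormancy library stood apart from the other three. No member shared its whole sequence with another name, as 12 of the 371 known names did.

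For miR5568, also a sorghum name, miR5568g-3p had 52.9, 68.5, 67.5 and 57.8 RPM, a ratio of 1.29 (1.20 to 1.40), with both middle stages higher than both outer ones. The name miR5568f-5p had 11.1, 17.3, 10.1 and 8.1 RPM and lay just outside the limit, with a ratio of 2.14. For miR6219-5p, again from sorghum and 24 nt long, the values were 40.5, 37.9, 37.2 and 65.0 RPM, even over the first 3 stages and highest at jointing, with a ratio of 1.75 (1.59 to 1.92). The 3p name, miR6219-3p, had 1.7 RPM at the winter dormancy stage and 2.4 RPM at the spring green-up stage and was listed at 0 at the others.

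**Figure D3:**
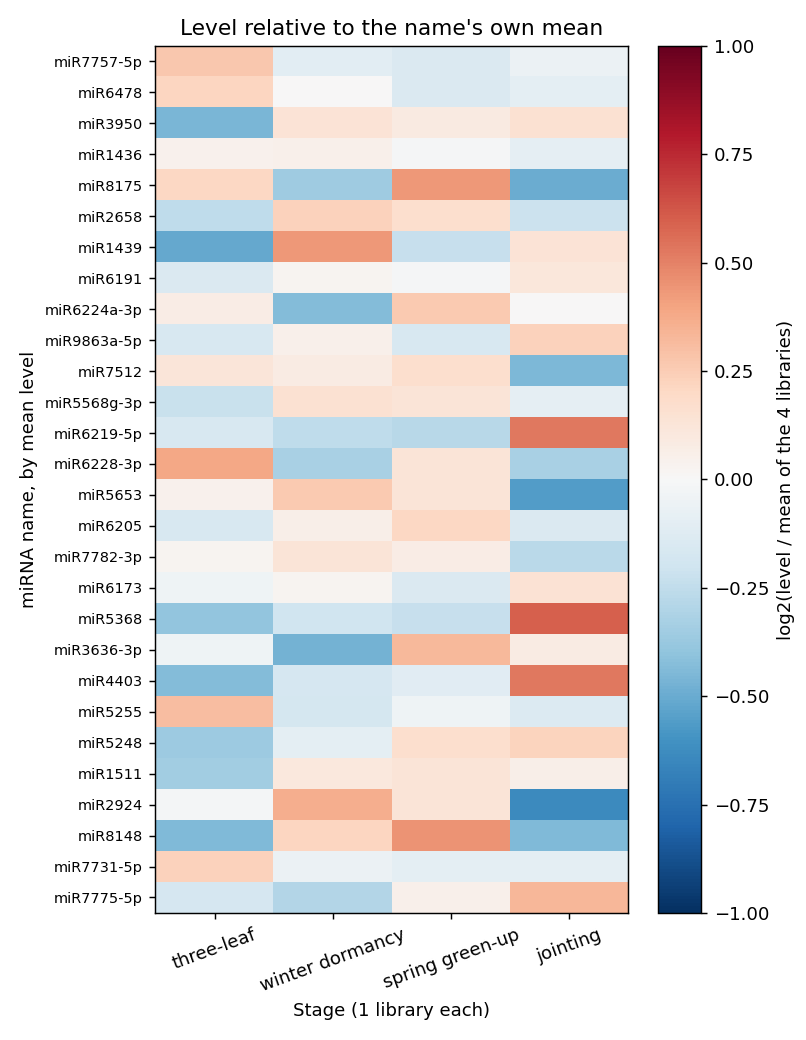
Level of each member in each library relative to its own mean over the 4 libraries, as log2, ordered by mean level; red is above and blue below the mean. No common shape runs through the 28 members, and the deepest colours are at the jointing stage, for example red for miR5368 and blue for miR2924.

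Several members resemble the ends of transposable elements. Short inverted-repeat elements of the Stowaway type, which are frequent in grass genomes, end in a stretch that includes CGGAGGGAG. On either strand these 9 letters were found in miR1436 and miR6224a-3p, 2 of the 28 members (7.14%), and in 10 of all 371 known names (2.70%). The shared stretch of the pair is shown in capitals.
miR1436: auuuugggACGGAGGGAGuaa
miR6224a-3p: aauauuuaggaACGGAGGGAG
The letters CCGGGACUA, from the ends of CACTA-type elements, were found in miR6219-5p and in no other known name. A match of this kind is a description of letters and shows no origin.

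Another stretch linked miR1511, a soybean name, and miR7782-3p, a *Brachypodium* name, both 24 nt long. Capitals mark the 16 bases that they share.
miR1511: aaaaccuaGGCUCUGAUACCACUG
miR7782-3p: accuGGCUCUGAUACCACUGuugg
The inner letters CUCUGAUAC occurred on either strand in 6 of all 371 known names (1.62%), 2 of them members. The share was 7.14% of the members. It was 5.71% of the 35 names of the numbered set above 0 at all 4 stages that varied more than 2-fold. The levels of miR7782-3p were 27.3, 29.3, 28.1 and 22.2 RPM, lowest at jointing, with a ratio of 1.32 (1.17 to 1.49). Those of miR1511 were 4.3, 5.9, 6.0 and 5.7 RPM, lowest at the three-leaf stage, and all 4 of its counting intervals overlapped.

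Sequences that overlap by 18 nt or more on the same strand with at most 2 mismatches could have their reads listed under either name. This held for 5 members and another known name. When each was summed with the names that overlap it, 4 of the 5 stayed within the limit and 1 left it, so that member was steady only as listed by its own name; the overlap of that member is not reported here. With the 4 names that overlap it, miR1127b-3p, miR5205a, miR6224a-3p and miR9493, miR1436 came to 996.1, 901.2, 1186.2 and 856.6 RPM, a ratio of 1.38. For miR6224a-3p the names were miR1436 and miR5175a, and the sums of 373.5, 516.3, 376.5 and 344.9 RPM had a ratio of 1.5. Summed with miR818a, miR5568g-3p had a ratio of 1.47, and miR7782-3p with miR1871 had one of 1.4. In the sums, then, miR1436 was no longer the evenest member and kept within the limit.

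The second deposited table lists 82 miRNAs that the authors predicted from precursors in the wheat genome, from reads that had matched no known name. The sequences of 4 members overlapped 5 of these precursors, and 3 of the members did so on both strands of one precursor. In the alignments below, mismatched bases are in capitals and all sequences are written as RNA. Precursor coordinates are those of the deposited table, on the genome of Ensembl Plants release 31.

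The precursor of novel_miR84 lies at 118120039 to 118120143 of chromosome 1B, plus strand. All 21 bases of miR1436 but 1 were found in it at positions 82 to 102 and, on the opposite strand, at positions 4 to 24.
miR1436: auuuugggacggagggaguaA
novel_miR84 precursor: auuuugggacggagggaguaC
The predicted miRNA was far lower than miR1436, with 12.4, 19.2, 11.0 and 16.5 RPM, and varied more. The sequence of miR1439 also fell in this precursor, at positions 83 to 103, with 2 mismatches.

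The precursor of novel_miR2133, on the scaffold IWGSC_CSS_6BL_scaff_4383393, held miR6191 on the opposite strand at positions 63 to 86 with 1 mismatch, and on the same strand at positions 12 to 35 with 2.
miR6191: cuuGgauuugucuagauacggaug
novel_miR2133 precursor, opposite strand: cuuAgauuugucuagauacggaug
Here too the predicted miRNA was low, with 1.3, 2.5, 1.2 and 1.1 RPM. The sequence of miR5568g-3p matched the precursors of novel_miR1250 and novel_miR1559 on both strands with 2 mismatches each. Those precursors are at 166473449 to 166473532 of chromosome 6A, minus strand, and at 150712760 to 150712850 of chromosome 7D, plus strand. For novel_miR1250 the values were 19.5, 31.5, 15.5 and 8.3 RPM, and for novel_miR1559 they were 11.7, 11.3, 10.9 and 9.2 RPM. The latter had a ratio of 1.27, below the median of 1.51 over the members, and the former varied 3.80-fold. Neither a known nor a predicted name overlapped 21 of the 28 members.

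The remaining members between 10 and 100 RPM were mostly of 24 nt. The sorghum name miR6228-3p, of 23 nt, had 48.1, 29.4, 40.4 and 29.5 RPM as listed under its own name, a ratio of 1.64 (1.48 to 1.81), and was higher at the three-leaf and spring green-up stages than at the others. The values of miR7512 were 79.6, 77.4, 82.4 and 53.7 RPM and those of miR5653, an *Arabidopsis* name, were 35.9, 41.6, 38.0 and 23.6 RPM. Both were lowest at jointing, with ratios of 1.53 (1.42 to 1.66) and 1.76 (1.58 to 1.97). Over the first 3 stages miR7512 was even. For miR5653 the winter dormancy level was above the three-leaf level, and their counting intervals did not overlap. The barley name miR6205 had 26.5, 30.8, 34.2 and 26.8 RPM and was highest at spring green-up, by 1.29 (1.15 to 1.45) over the three-leaf stage. Its counting intervals at spring green-up and winter dormancy overlapped. For miR3636-3p the values were 11.5, 8.5, 14.8 and 12.5 RPM, lowest at the winter dormancy stage. Of 21 nt, miR5255, a *Medicago* name, had 14.0, 10, 11.0 and 10.3 RPM, with the three-leaf library above the other three. Its counting interval at the three-leaf stage overlapped that at spring green-up.

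Below 10 RPM the values rest on few reads, down to 23 for miR7775-5p at the winter dormancy stage. The 21 nt name miR5248 had 5.8, 7.0, 8.4 and 8.7 RPM and was higher at both later stages than at both earlier ones. Its counting interval at winter dormancy overlapped those at both later stages. For miR8148 the values were 3.3, 5.2, 6.1 and 3.3 RPM, so both middle stages were higher than both outer ones. The *Brachypodium* names miR7731-5p, with 4.4, 3.6, 3.5 and 3.5 RPM, and miR7775-5p, with 1.2, 1.1, 1.4 and 1.7 RPM, differed in order, the first highest at the three-leaf stage and the second at jointing. For these 2 the interval of the ratio included 1, so no difference between their libraries was detectable at this depth. Together with miR1511 they were the 3 members whose 4 counting intervals all overlapped. In the 26 members other than miR7731-5p and miR7775-5p, the interval of the ratio lay above 1. That interval is too narrow, since the 2 libraries were picked as the highest and lowest of 4 after the values were seen. For miR1511 it lay above 1 although all 4 of its counting intervals overlapped. The variation between plants was not measured.

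Just inside the limit lay miR2924, with 4.6, 6.0, 5.1 and 3.0 RPM and a ratio of exactly 2. Next were miR5368, a soybean name, with 15.1, 17.3, 16.9 and 30.1 RPM and a ratio of 1.99, and miR4403, also from soybean, with 8.4, 10.1, 10.5 and 16.4 RPM and a ratio of 1.95. Both soybean names were even over the first 3 stages and highest at jointing. Just outside it, miR5384-3p had 39.0, 29.1, 25.5 and 52.2 RPM and a ratio of 2.05. The values of miR1432-5p were 43.2, 43.2, 39.1 and 83.4 RPM, with a ratio of 2.13 and again a high jointing library. The deposited values have 1 decimal, and rounding alone could place miR2924 and miR5368 outside the limit. Counting error reached above the limit for 7 members, those 2 and miR1439, miR3636-3p, miR4403, miR8148 and miR7775-5p.

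**Figure D4:**
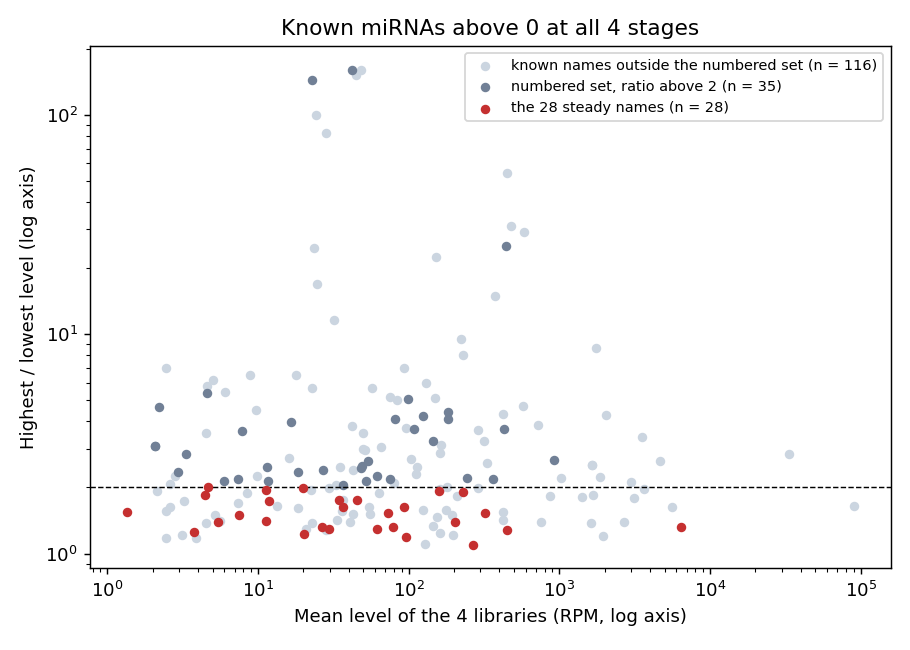
Ratio of the highest to the lowest level against the mean level (RPM), both on log axes, for the 179 known names above 0 at all 4 stages; the dashed line is the limit of 2. The 28 members (red) lie at or below it by the rule. The 35 other names of the numbered set (dark grey) span 2.075 to 925 RPM. Of the members, miR7757-5p lies above that range and miR7775-5p below it.

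Members did not share a stage at which they peaked. Three-leaf leaves held the highest value of 5 members, winter dormancy that of 7, spring green-up that of 7 and jointing that of 9. Among the 179 known names above 0 at all 4 stages these shares were 23.5%, 28.5%, 16.2% and 35.2%. The lowest value was at the three-leaf stage for 12 members, counting miR8148, which was equally low at jointing, against 23.5% of the 179. From the three-leaf to the winter dormancy stage, 17 members were higher and 11 lower, with a median log2 difference of 0.14, beside 0.01 over the 179 names. From spring green-up to jointing, 12 were higher, 15 lower and 1 equal, with a median log2 difference of -0.07, beside 0.05.

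Of the 28 members, 14 stayed within 1.5-fold, and the median ratio was 1.51. These ratios depend on what the libraries are scaled by, and the deposited values were taken as per mapped read. Median-of-ratios scaling over the 179 names kept 26 of the 28 within 2-fold, and scaling by the total of all listed known miRNAs kept 23. That total is led by miR168, the family that pairs with Argonaute transcripts. With miR168 left out of the total, 13 of the 28 stayed within 2-fold. The members that stayed within it under all of these scalings included miR7757-5p, miR6478, miR1436, miR6191 and miR6173, whereas miR5368, miR4403, miR8175, miR3636-3p and miR6219-5p left it under both totals.

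**Figure D5:**
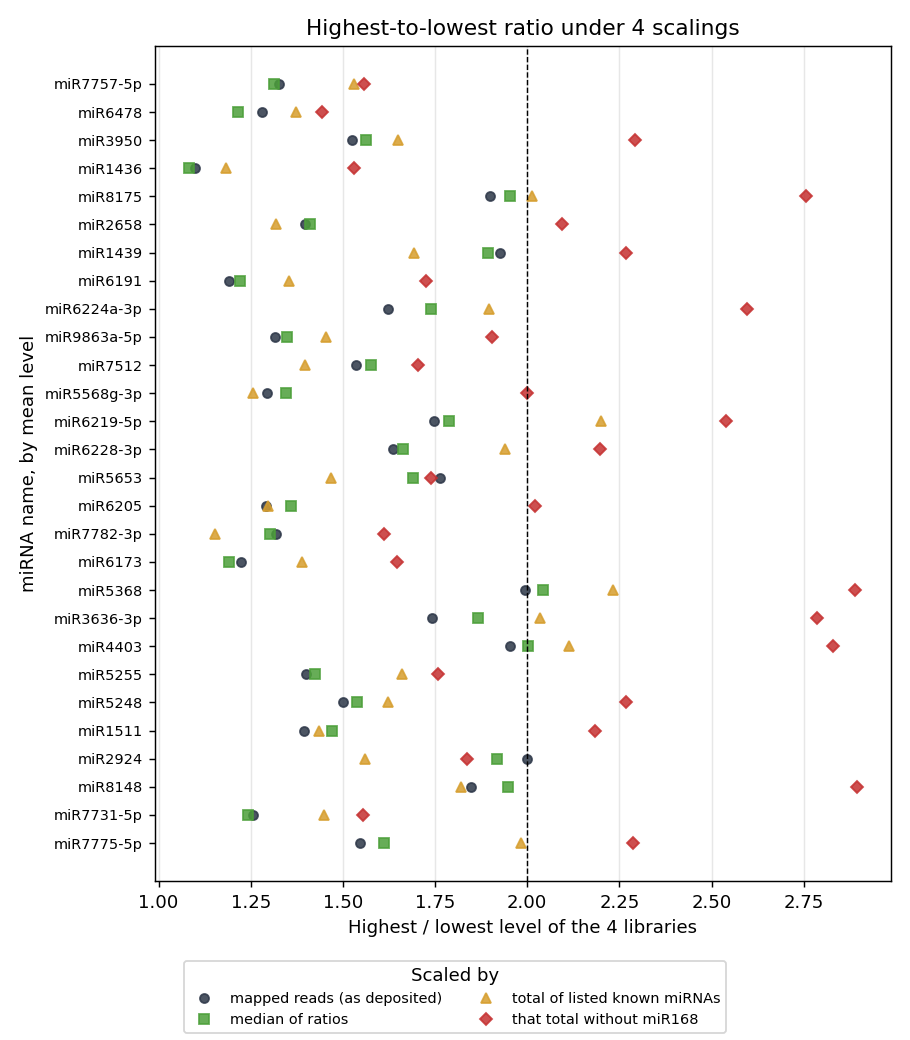
Ratio of the highest to the lowest level of each member under 4 scalings of the libraries, ordered by mean level; the dashed line is the limit of 2. With the total of listed known miRNAs without miR168 (diamonds), 15 members lie beyond the limit, and miR8148 moves from 1.85 to 2.89.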

How the data were processed

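The authors removed adaptors, low-quality reads and reads of rRNA, tRNA, snRNA, snoRNA and repeats, kept reads of 18 to 30 nt, and named reads that matched plant miRNAs of miRBase release 21 by BLAST with at most 2 mismatches. The deposited values are RPM rounded to 1 decimal, which the authors also call TPM. A name can therefore collect reads that are not exactly its listed sequence. Repeated names were counted once. All columns were matched to a stage by sample title.

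To estimate reads, each RPM value was multiplied by the number of mapped reads stated for its library in the study. Levels have exact Poisson intervals and ratios exact Clopper-Pearson intervals, both at 95%, checked on simulated reads. The simulated ratios were of a pair of libraries set in advance. They cover counting error only, and PCR copies are not independent molecules. The ratio intervals do not allow for the highest and lowest library having been picked from 4. With 1 library per stage no test between stages was made. Members and lists were chosen with earlier results of these data known. Every member is named. Outside them, names with a member's number, overlapping sequences and the 3 ratios nearest above the limit are named, and any other is marked. Not every sequence overlap is reported here, and 1 member whose sum over overlapping names left the limit is given by count only. The sequence motifs were spelled out with both strands searched. Python 3.11.15, numpy 2.4.6, scipy 1.17.1 and matplotlib 3.10.9 were used.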

Additional observations from a re-analysis of the deposited data

How the results depend on the processing

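The number of steady names in the numbered set, 28, was 26 when scaled by the total of listed known miRNAs, 23 with miR168 left out of that total and 27 under median-of-ratios scaling. The first 2 shift all log2 levels, at the winter dormancy stage by -0.20 and -0.29, and with miR168 left out by 0.39 at spring green-up. Of the 23, 13 were among the 28, the only one of these scalings to change the count of members within the limit by more than 1.5 times. A limit of 1.5 left 14 and one of 3 gave 46. A level above 5 RPM at every stage left 23, one above 50 RPM left 12, and lengths of 20 to 22 nt left 15. Adding 1 RPM gave 31, or 43 with names listed at 0 let in. Sums over overlapping sequences gave 36, 27 of them among the 28. Leaving out 1 library gave 36 to 46 names, the most without the spring green-up library, and kept the 28 members in each case, since fewer values must lie within the limit. Of the members, 26 stayed within it at the largest ratio that rounding allows and 21 at the upper end of the counting interval, both settings chosen after seeing the data. No paired analysis was possible because each stage had 1 library.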
